A study of Mus musculus with 4 samples.

Results

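The genes described here are 10 outputs and nuclear receptors of the circadian clock: Dbp, Tef, Hlf, Nfil3, Nr1d1, Nr1d2, Rora, Bhlhe41, Usp2 and Wee1. Every probe set that the array's annotation ties to 1 gene among these names was taken, which gave 19 probe sets of the 20380 that name 1 gene. The probe set for each gene was chosen by its value, as the one that was brightest on average across the samples, so that 10 of 12393 genes are described, and the other probe sets served as a check. No filter on low values was applied, and all 10 genes were measured. The genes themselves were proposed with the differences between these samples already known. The counts over the 10 genes below are therefore descriptions.

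The data were 1-colour Affymetrix arrays of bulk normal skeletal muscle from 4 samples of wild type mice on a mixed 129S4/SvJae and C57BL/6 background, with 1 array per sample. The series is about rhabdomyosarcoma that begins in Pax7-positive cells of muscle, and its tumours were not analysed here. The samples are titled nm7, nm8, skm4 and skm5, and belong to a single group. The title prefixes nm and skm are the only label that separates them, and their meaning is not stated. The age and sex of the mice, the muscle taken, the hour of collection and whether samples came from separate animals are not in the sources used here, and no treatment is named. P-values therefore reflect the spread among these arrays alone, part of which may be technical.

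In the circadian clock, the proteins Clock and Arntl (also called Bmal1) form a dimer that binds E-boxes and switches on the Per and Cry repressors, which then shut the dimer off. The same dimer drives output factors. Dbp, Tef and Hlf, the PAR basic leucine zipper factors, activate genes through D-boxes, and Nfil3 represses through the same sites. A second loop joins the nuclear receptors: Nr1d1 and Nr1d2 (REV-ERB alpha and beta) repress Arntl through the element at which Rora activates it. Skeletal muscle has its own clock, which is set by feeding, activity and glucocorticoids.

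The promoters of Tef, Nr1d1 and Bhlhe41 are shown because each held an E-box, the site of the Clock and Arntl dimer, or a variant of it. Sequences are from RefSeq on build GRCm38.p6, each the 250 bases before the start site on the gene's strand. They lie at chr15:81802423-81802672 (plus strand) for Tef, chr11:98775378-98775627 (minus strand) for Nr1d1 and chr6:145865421-145865670 (minus strand) for Bhlhe41. Capitals mark the E-box CACGTG in Tef and Bhlhe41 and, in Nr1d1, the variant CACGTT as read on the other strand.
Tef: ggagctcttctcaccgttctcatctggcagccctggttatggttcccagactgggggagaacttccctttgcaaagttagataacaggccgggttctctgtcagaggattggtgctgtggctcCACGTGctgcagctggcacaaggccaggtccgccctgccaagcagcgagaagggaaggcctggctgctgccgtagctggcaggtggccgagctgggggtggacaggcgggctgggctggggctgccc
Nr1d1: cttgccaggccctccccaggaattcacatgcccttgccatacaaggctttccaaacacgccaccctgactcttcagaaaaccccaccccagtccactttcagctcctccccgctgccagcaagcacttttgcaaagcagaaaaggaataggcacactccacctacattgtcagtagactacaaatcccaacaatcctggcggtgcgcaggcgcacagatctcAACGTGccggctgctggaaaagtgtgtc
Bhlhe41: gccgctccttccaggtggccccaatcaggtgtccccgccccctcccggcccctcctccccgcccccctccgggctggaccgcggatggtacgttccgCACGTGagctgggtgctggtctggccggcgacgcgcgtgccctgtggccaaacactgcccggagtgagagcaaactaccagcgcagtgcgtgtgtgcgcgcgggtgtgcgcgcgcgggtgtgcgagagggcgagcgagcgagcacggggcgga
Counting the start site as position 1, the E-box lay at positions -127 to -122 in Tef and -153 to -148 in Bhlhe41, and the variant at -28 to -23 in Nr1d1.

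Promoter windows of 300 bases, 250 before to 50 after the start site, were found for 9 of the 10 genes, all but Wee1. There were 10 windows in all since Tef has a pair. The E-box CACGTG was in 3 of these 10 windows, both of Tef and that of Bhlhe41, and in 7.15% of the 32851 windows of all genes. The variant CACGTT was in 1 of 10 and in 4.68% of all windows. The D-box, spelled TTATGTAA or TTACGTAA, was in 0 of 10 and in 1.06% of all. The full ROR element, searched by its usual consensus, was in 0 of 10 and in 0.384% of all, and its half-site AGGTCA, which overlaps the full element, was in 2 of 10 (Nfil3 and Nr1d2) and in 16.3% of all. All motifs were searched on both strands, and no match says only that the letters are not in this short window. The start site of a window is not always the outer end of the gene. For Usp2 the 250 bases end at 44084919 on chromosome 9, where the gene spans 44067021 to 44095627. The start sites used for Dbp, Nfil3 and Rora also lie inside the gene's span, so other promoters of these genes were not searched.

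Values are log2 expression values that the authors computed by RMA (robust multi-array averaging), so that a difference of 1 is 2-fold. Differences between very dim or very bright values are compressed on this scale. Array medians ran from 7.26 to 7.30, and the precision is limited by there being 4 arrays. The muscle markers Acta1, Ckm, Myh4, Ttn, Tnnt3 and Mb all read between 13.92 and 14.70 on every array. Neuron markers (Rbfox3, Snap25 and Syt1) read 3.66 to 5.16, near the bacterial control probe sets of TrpnX at 3.40 to 4.05.

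**Figure D1:**
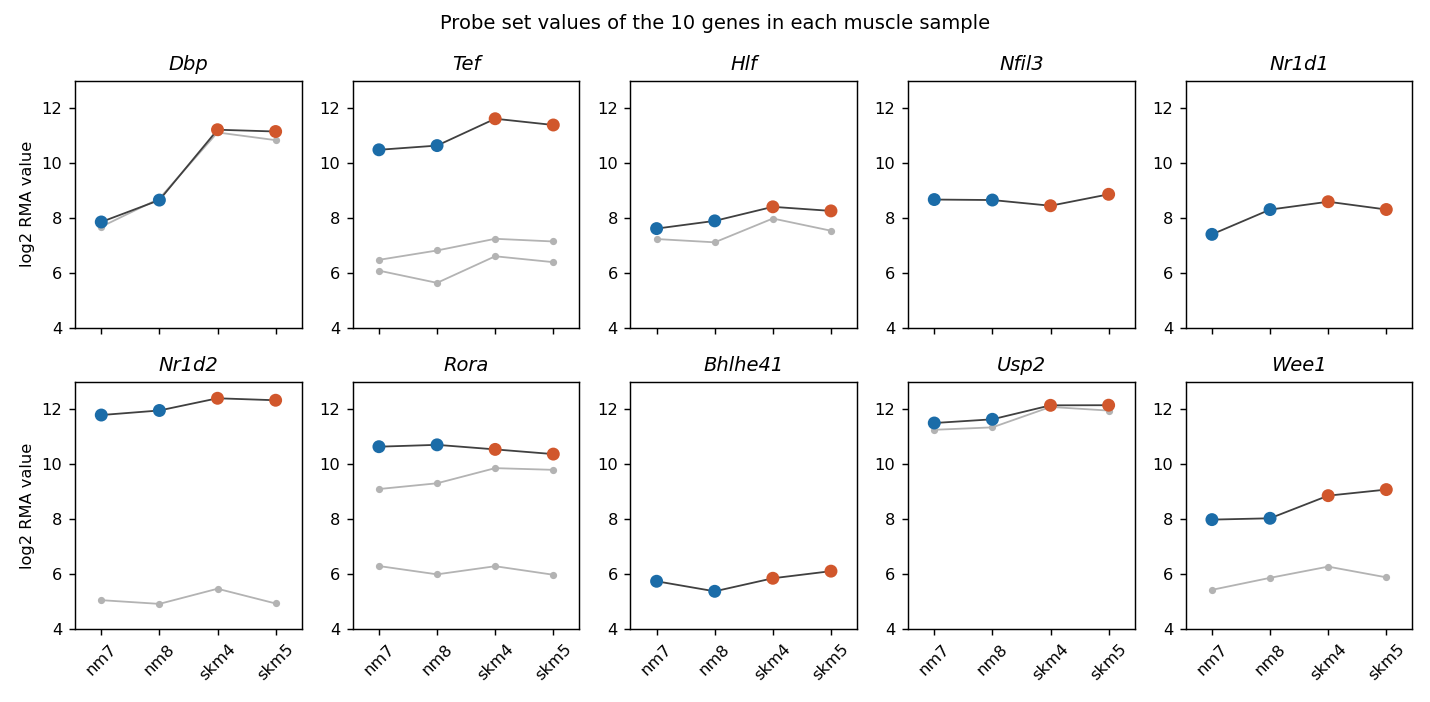
Log2 RMA values (vertical axis) of the 10 genes in each of the 4 muscle samples (horizontal axis); large points are the probe set that stands for the gene, blue for nm and orange for skm samples, small grey points are its other probe sets, and lines only join the values of a probe set, since samples have no order. Dbp read 7.86 and 8.66 in the nm samples and 11.22 and 11.16 in the skm samples, the widest separation among the 10 genes.

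All 3 PAR basic leucine zipper activators read higher in both skm samples than in either nm sample, where 25.8% of all genes did. Tef and Hlf differed far less than Dbp. Dbp, which follows the clock with a large daily swing in many tissues, read 7.86 (nm7), 8.66 (nm8), 11.22 (skm4) and 11.16 (skm5). The skm samples stood within 0.07 of each other and the nm samples 0.80 apart, with nm7 lowest. The skm minus nm difference was 2.93 ± 0.27 (SE, n = 2 per prefix), or 7.64-fold, with a 95% interval of 2.27 to 3.60 and an adjusted p = 0.0506 in limma over all genes. Its second probe set read 7.68, 8.71, 11.12 and 10.84 in the same order of samples and differed by 2.79 ± 0.34, the error of every such further probe set coming from a fit over all 20380 probe sets.

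Tef, a close relative of Dbp that binds the same sites, read 10.49 (nm7), 10.64 (nm8), 11.62 (skm4) and 11.40 (skm5). The groups did not overlap, and the gaps within each prefix, 0.15 and 0.23, were small beside the difference of 0.94 ± 0.14 (1.92-fold, limma adjusted p = 0.0562). The 2 dimmer probe sets of Tef went the same way, by 0.55 ± 0.16 and 0.64 ± 0.19. Hlf, the third member of the family, read 7.62, 7.90, 8.41 and 8.26 in nm7, nm8, skm4 and skm5. Its difference was 0.58 ± 0.15 (1.49-fold, limma adjusted p = 0.107), and its second probe set, at 7.23, 7.11, 7.98 and 7.54, gave 0.59 ± 0.18. For Dbp, Tef and Hlf alike, nm7 was the lowest sample and skm4 the highest on the probe set that stood for the gene.

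Nfil3, the repressor that competes with Dbp, Tef and Hlf for D-boxes, did not separate the prefixes. It read 8.68 (nm7), 8.66 (nm8), 8.45 (skm4) and 8.87 (skm5). The skm samples held both the lowest and the highest value, with the nm samples between them. The difference was -0.01 ± 0.17 (limma adjusted p = 0.984), its 95% interval ran from -0.43 to 0.42, and the sign turned with quantile normalization (0.031) or with median centring (0.015). Nfil3 has 1 probe set here, so no second probe set bears on it.

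The REV-ERB receptors read higher in both skm samples than in either nm sample on the probe set that stood for the gene. So did 25.8% of all genes. Nr1d2, REV-ERB beta, read 11.80 (nm7), 11.96 (nm8), 12.41 (skm4) and 12.34 (skm5). The difference was 0.49 ± 0.13 (1.41-fold, limma adjusted p = 0.106). These values lie in the upper part of the array's range, which ended at 14.76. A second probe set of Nr1d2 was dim, at 4.91 to 5.46, and overlapped between the prefixes. Nr1d1, REV-ERB alpha, read 7.40 (nm7), 8.31 (nm8), 8.60 (skm4) and 8.31 (skm5). Here nm7 stood low while nm8 and skm5 were nearly level, at 8.309 and 8.312. The difference of 0.60 ± 0.31 was smaller than the gap of 0.90 between the nm samples (limma adjusted p = 0.309, 95% interval -0.17 to 1.37). It was 0.14 without nm7 and 1.05 without nm8, so its size rested on which nm sample was kept. Nr1d1 also has 1 probe set here.

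Rora, the activator that shares its element with the REV-ERB receptors, gave different answers by probe set. The brightest, 1424034_at, read 10.64 (nm7), 10.71 (nm8), 10.54 (skm4) and 10.37 (skm5), lower in skm by a narrow margin. Its difference was -0.22 ± 0.13 (limma adjusted p = 0.359, 95% interval -0.54 to 0.10), and -0.13 without skm5. The second, 1420583_a_at, read 9.10, 9.31, 9.86 and 9.80 in the same samples, which is higher in skm by 0.63 ± 0.14 (adjusted p = 0.081 in limma over all probe sets). The third, 1424035_at, read 5.97 to 6.29 and overlapped between prefixes, at -0.01 ± 0.18. With the mean of the 3 probe sets the sign of Rora turned to 0.13 (adjusted p = 0.577). Which transcripts each probe set binds was not analysed here, so no direction is given for Rora as a gene.

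**Figure D2:**
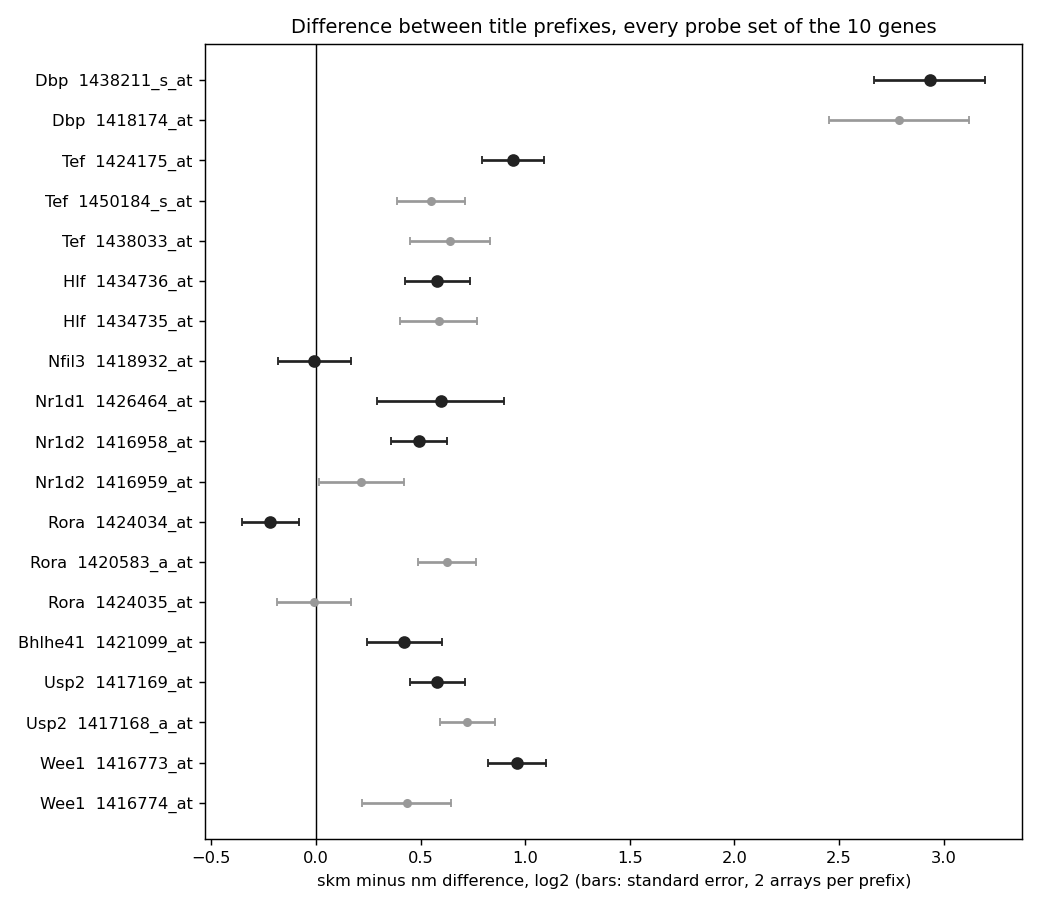
The skm minus nm difference on the log2 scale (horizontal axis) for each of the 19 probe sets of the 10 genes (rows), black for the probe set that stands for the gene and grey for the others, with bars of 1 standard error from limma over all probe sets (2 arrays per prefix). Of the 19 probe sets 16 lie above 0 and 3 below, but 7 of the 10 genes have more than 1 probe set. The share of all 20380 probe sets above 0 is not given here, and the genes were proposed with this split known. The count is therefore a description of the plot alone. Rora is the gene whose probe sets lie clearly on both sides, at -0.22 and 0.63.

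Bhlhe41, also called Dec2, a repressor that binds E-boxes, was dim. It read 5.73 (nm7), 5.37 (nm8), 5.84 (skm4) and 6.10 (skm5). The prefixes did not overlap, but nm7 and skm4 were 0.11 apart while the nm samples were 0.37 apart. The difference was 0.42 ± 0.18 (1.34-fold, limma adjusted p = 0.228, 95% interval -0.02 to 0.87). It was 0.24 without nm8 and 0.61 without nm7.

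Of the output enzymes, Usp2, a deubiquitinase whose transcript cycles in many tissues, read 11.51 (nm7), 11.64 (nm8), 12.15 (skm4) and 12.16 (skm5). The skm samples were level with each other, and the difference was 0.58 ± 0.12 (1.49-fold, limma adjusted p = 0.0773). Its second probe set gave 0.72 ± 0.13. Wee1, the kinase that holds back entry into mitosis and is driven by Clock and Arntl, read 7.98 (nm7), 8.03 (nm8), 8.86 (skm4) and 9.08 (skm5). The nm samples were 0.05 apart, and the difference was 0.96 ± 0.13 (1.95-fold, limma adjusted p = 0.0506). A dimmer probe set of Wee1, at 5.42, 5.86, 6.27 and 5.87, gave 0.43 ± 0.21, with nm8 and skm5 nearly level.

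Counted together, 0 of the 10 genes passed limma's test over all genes at an adjusted p of 0.05, where 0.0323% of all genes did (4 genes). Dbp and Wee1 stood at the lowest adjusted p of the 10, 0.0506, a value that 130 genes share. At an unadjusted p under 0.05 there were 6 of the 10, against 23.5% of all genes, and at an adjusted p under 0.10 there were 4, all higher in skm (Dbp, Wee1, Tef and Usp2), against 8.03% of all genes, or 3.34% counting the higher ones alone. The prefixes did not overlap in 9 of the 10 genes, 8 higher and 1 lower in skm, where 54.4% of all genes had no overlap, 25.8% higher and 28.6% lower. The lower 1 was Rora on its brightest probe set, while its second probe set read higher in skm without overlap. Nr1d1 was among the higher by a margin of 0.003. The median absolute difference was 0.58 over the 10 genes and 0.20 over all genes. Since the genes were proposed with this split known, these shares support nothing beyond the values themselves.

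**Figure D3:**
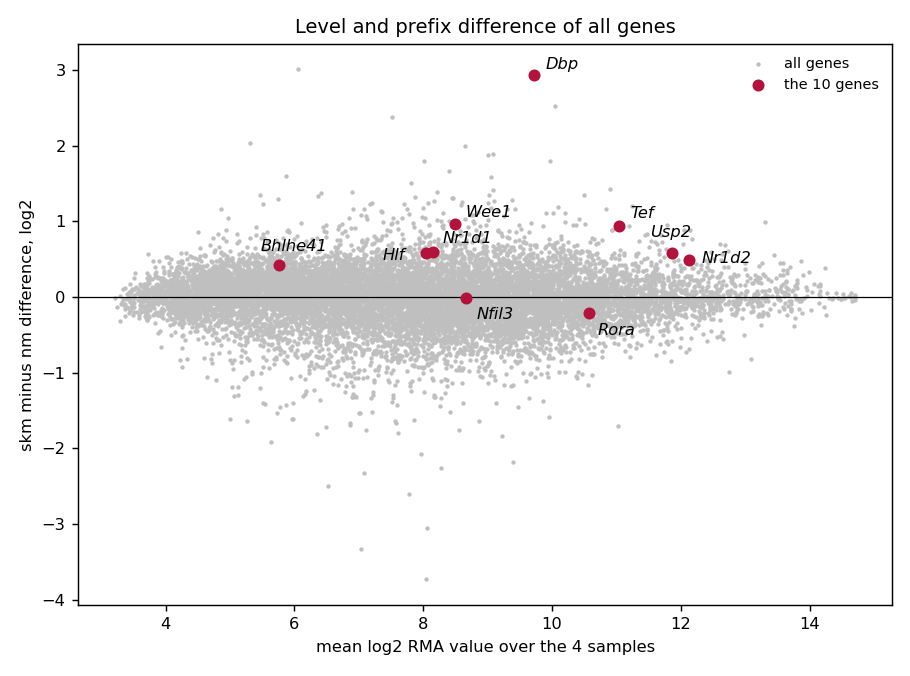
The skm minus nm difference on the log2 scale (vertical axis) against the mean log2 RMA value over the 4 samples (horizontal axis) for all 12393 genes in grey and the 10 genes in red. Dbp stands at 2.93 near the top edge of the cloud, Wee1 and Tef at 0.96 and 0.94 lie at its upper side, and Nfil3 and Rora lie at -0.01 and -0.22 inside it.

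Of the 10 genes, Dbp had the widest spread over the 4 samples. This spread holds the difference between the prefixes, so it is not a separate view of the genes. Dbp had an SD of 1.73, rank 6 of 12393 genes. Wee1 and Tef had SDs of 0.56, at ranks 387 and 399, and Nr1d1 of 0.52, at rank 500, which rested on nm7: without it the SD of Nr1d1 was 0.16. Hlf had 0.36, Usp2 0.34, Bhlhe41 0.31 (0.19 without nm8) and Nr1d2 0.29. Nfil3 at 0.17 and Rora at 0.15 lay below the median SD of all genes, 0.19. A range over 1, which is 2-fold, was found in 4 of the 10 (Dbp, Tef, Nr1d1 and Wee1) and in 5.98% of all genes. Genes with close SDs, such as Wee1 and Tef, Hlf and Usp2, or Bhlhe41 and Nr1d2, cannot be put in order on 4 samples.

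Between pairs of samples, the 10 genes differed most across the prefixes, a split that was known when they were proposed. The median absolute difference over the 10 genes was 0.16 between nm7 and nm8 and 0.20 between skm4 and skm5, where all genes had 0.14 and 0.16. Across the prefixes it was 0.72 for nm7 and skm4, 0.65 for nm7 and skm5, 0.49 for nm8 and skm4 and 0.44 for nm8 and skm5, where all genes had 0.22 to 0.26. By the root mean square difference over the 10 genes, which weighs large gaps more, the nm pair was the wider. It was at 0.42, against 0.22 for the skm pair, where all genes had 0.27 and 0.31. Sample nm7 was lowest in 7 of the 10 genes. Sample skm4 was highest in 5 and skm5 in 4. The matching shares over all genes were not computed. A gene that is higher in skm without overlap has its lowest value in an nm sample and its highest in an skm sample by construction. These counts are therefore descriptions. Sample nm8 lay closer to the skm samples than nm7 did, by the median absolute differences.

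The core clock genes that act on the 10 read in both directions. Among the core activators, 1 of 4 passed limma's test, lower in skm: Arntl fell from 8.54 and 8.46 to 6.65 and 6.76 (-1.79 ± 0.12, adjusted p = 0.047). Its partners Clock (-1.11 ± 0.14) and Npas2 (-1.30 ± 0.14) did not pass, each at an adjusted p = 0.0506, and Arntl2, a paralogue of Arntl, overlapped between prefixes at 0.14 ± 0.14. Npas2 was dim in skm, at 4.59 and 4.35, and differed by -0.63 with the mean of all its probe sets (adjusted p = 0.093). Arntl was low in the samples in which Dbp was high. Its difference was -1.84 to -1.74 with any 1 sample left out. The call was lost in each such fit, but a fit with 1 array in a prefix can call few genes, so this loss says little about Arntl.

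Among the core repressors, 1 of 6 measured passed, higher in skm: Per3 rose by 1.67 ± 0.12 (limma adjusted p = 0.047). It differed by 0.45 with the mean of all its probe sets (adjusted p = 0.127). With any 1 sample left out Per3 differed by 1.62 to 1.71. The call was then lost, which says as little as for Arntl. Per2 read 5.08, 4.03, 7.62 and 7.50 in nm7, nm8, skm4 and skm5, and Per1 7.59, 8.53, 9.92 and 9.95. Per1 shared with Dbp and Nr1d1 the low value in nm7, while Per2 was lowest in nm8, where it was as dim as the TrpnX controls. Cry2 differed by 1.24 ± 0.12 and Cry1 by -0.48 ± 0.11, both without overlap. Bhlhe40, the paralogue of Bhlhe41, overlapped between prefixes at 0.02 ± 0.19. Rorb, a relative of Rora, read 5.73 to 5.91 and differed by 0.02 ± 0.13.

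**Figure D4:**
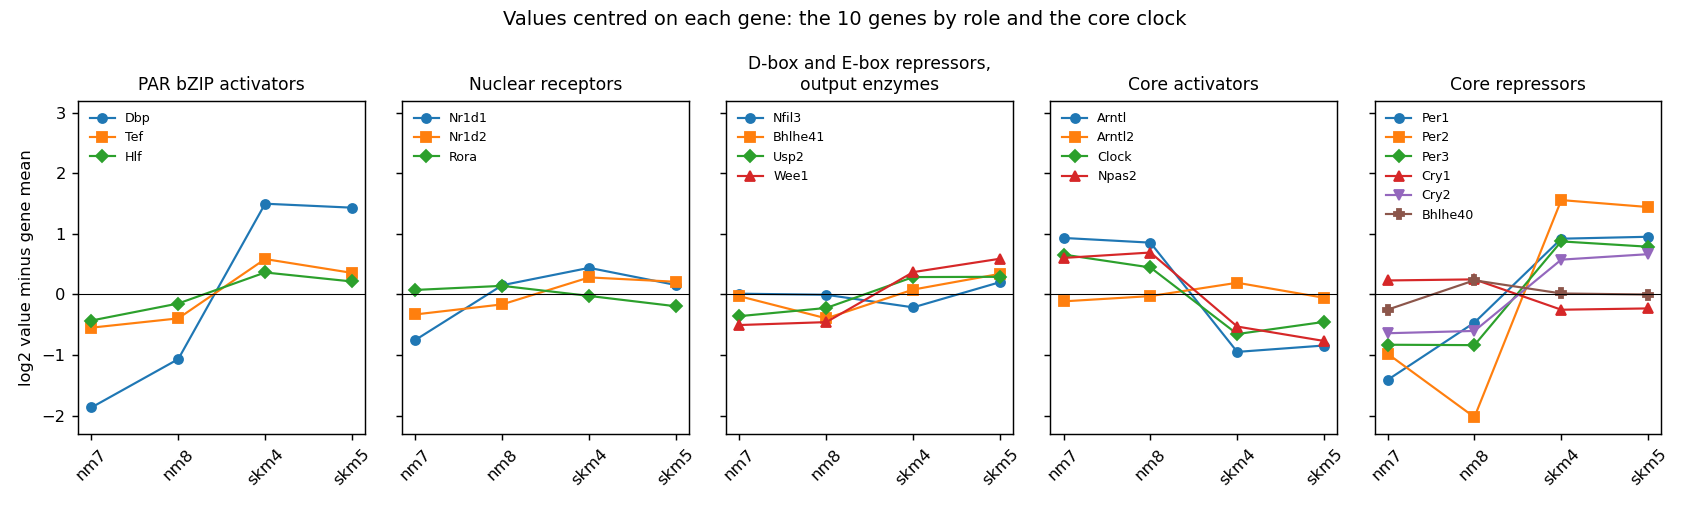
Log2 values minus the gene's mean over the 4 samples (vertical axis) in each sample (horizontal axis), for the 10 genes by role in the left 3 panels and for the measured core activators and repressors in the right 2; lines join the values of a gene and samples have no order. Dbp runs from -1.87 in nm7 to 1.50 in skm4, and Arntl, Clock and Npas2 are above 0 in the nm samples and below 0 in the skm samples.

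The targets of the Clock and Arntl dimer and those of the REV-ERB and ROR element were also counted, on lists chosen with the split known. Of 12 measured E-box targets, 7 of which are among the 10 genes, 10 read higher in skm without overlap (25.8% of all genes did), 1 lower (Nampt, an enzyme of NAD synthesis, at -0.36 ± 0.12) and 1 overlapped (Bhlhe40), with 1 past the test (Per3). Their median difference was 0.77, against 0.00 over all genes. Of 5 targets of the REV-ERB and ROR element, 4 read lower in skm without overlap (Arntl, Clock, Npas2 and Cry1), where 28.6% of all genes did, with 1 past the test (Arntl), and Nfil3 overlapped. Their median difference was -1.11. The REV-ERB receptors themselves differed by 0.49 and 0.60.

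Of 7 measured regulators that act on clock proteins after translation, 0 passed limma's test and 3 had an unadjusted p under 0.05, where 23.5% of all genes had. Csnk1e, a kinase of Per proteins, differed by 0.69 ± 0.13 and its relative Csnk1d by -0.41 ± 0.12. Of 10 genes known as outputs of the muscle clock, 0 passed limma's test, and 4 had an unadjusted p under 0.05, where 23.5% of all genes had. The prefixes did not overlap in 7 of the 10, 6 higher and 1 lower (Ppargc1a), where 54.4% of all genes had no overlap. Tcap, a sarcomere protein whose promoter is driven by Clock and Arntl, differed by 0.99 ± 0.13 and Myod1, the muscle regulator, by 1.24 ± 0.16, each at a limma adjusted p = 0.0506, while Pdk4, which restrains glucose oxidation, overlapped at -0.17 ± 0.35.

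Genes induced by glucocorticoids, hormones that set peripheral clocks, were measured on the same arrays. Of 8, 7 read higher in skm without overlap (25.8% of all genes did), 1 overlapped (Zbtb16, at -0.28), and 0 passed limma's test, with 5 at an unadjusted p under 0.05 (23.5% of all genes). Mt2, a metallothionein, differed by 1.29 ± 0.17, Cebpd by 1.03 ± 0.29, Tsc22d3 by 0.81 ± 0.18 and Sgk1 by 0.76 ± 0.24. The list was highest in skm5, at a centred median of 0.63 against 0.16 in skm4, whereas the 10 genes had 0.25 in skm5 and 0.33 in skm4. Of 4 measured genes set by body temperature, 0 passed limma's test and 1 had an unadjusted p under 0.05 (23.5% of all genes). Hspa1b, a heat shock protein, overlapped between prefixes at -0.80 ± 0.44, with nm7 high at 9.29. Cirbp, a cold-induced RNA-binding protein, read higher in skm by 0.61 ± 0.13, and Hsph1 and Hspa8, heat shock chaperones, read lower by a difference of -0.36 ± 0.15 and -0.22 ± 0.14. The part of these genes in the result was not tested.

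Markers of some other cells differed between the samples. Of 7 measured lymphocyte markers, 7 read lower in skm without overlap, where 28.6% of all genes did, and their mean log2 level was 8.22 and 8.43 in the nm samples, 5.75 in skm4 and 7.03 in skm5. Of 4 adipocyte markers, 3 read lower in skm without overlap, where 28.6% of all genes did, and Fabp4 overlapped at a difference of -0.01. The mean levels of the 4 were 11.30, 11.34, 10.14 and 10.61 in nm7, nm8, skm4 and skm5. Keratinocyte markers overlapped between the prefixes in 5 of 6, where 54.4% of all genes had no overlap. They were high in skm5, with a mean level of 8.05 against 5.88, 6.37 and 6.12. No marker on this scale is at 0, and the dimmest lymphocyte value was 4.85 (Ms4a1 in skm4). Rora and Nfil3 are also expressed in lymphocytes. In bulk tissue, fewer cells of a type and less RNA per cell cannot be told apart, and the part of these cells in the values of the 10 genes was not tested.

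Genes with the most similar pattern were sought for the 4 members with an SD over 0.5, by the root mean square difference of values centred on each gene's mean over the 4 samples, among 6188 genes with a mean no lower than the median gene. Closest to Dbp were Ddit4, an inhibitor of mTORC1, at a distance of 0.30, Per1 at 0.53 and Slc25a25, a mitochondrial carrier, at 0.54. Ddit4 read 8.15, 9.41, 11.13 and 11.49 in nm7, nm8, skm4 and skm5, so that it shared the low value in nm7 with Dbp but was highest in skm5. Closest to Tef were Dusp13, a phosphatase, at 0.034, Plcd1, a phospholipase, at 0.034 and Crybb1 at 0.036. Closest to Wee1 were Bin1, a membrane-shaping protein of muscle, at 0.034, Prep at 0.041 and Farsa at 0.063. Closest to Nr1d1 were Sgsm3 at 0.13, Cdk5, a kinase, at 0.16 and Slc16a11 at 0.17. Distances are smaller for genes that vary less, and many genes lie close to any profile of 4 values, so these neighbours are a description of the 4 samples.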

How the data were processed

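Expression was measured in 4 normal muscle samples, 1 array each. The authors deposited 1 log2 value for each probe set and array, computed by RMA, and the submitters' processing notes name Affymetrix Expression Console 1.1. The scale was inferred from their range, and the arrays normalized together with these 4 are not given in the sources used here. Of 22690 probe sets, 64 controls were left out. The array's annotation named 1 gene for 20380, and symbols were updated through the GRCm38.p6 gene table, used for names alone. The probe set with the highest mean stood for a gene, which left 12393 genes. No column of samples was left unused.

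The skm minus nm difference was tested 2-sided by lmFit and eBayes of limma 3.58.1 (R 4.3.3). P-values were adjusted across the whole table by Benjamini and Hochberg's method and called under 0.05. Each gene had 2 residual degrees of freedom, to which the prior added 3.51. The fit was also run on simulated data, and how many of the simulated differences it called is not reported here. Intervals are 95% intervals of that fit, not adjusted for the number of genes. The 10 genes and all lists were chosen with earlier results of these data known. The named genes are the 10, the lists' members and the 3 nearest patterns. Alternatives were quantile normalization, median centring, keeping the brighter genes (mean no lower than the median gene), averaging a gene's probe sets, leaving out _x_at and _s_at probe sets, each sample left out, an intensity trend, every probe set tested and a threshold of 0.10. Some listed genes are not reported here, and protein sequences were not used.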

Additional observations from a re-analysis of the deposited data

Results flagged for a closer look

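None of the 10 genes had a sample that stood apart by Dixon's ratio at its 95% critical value for 4 samples. The highest ratio among them was 0.76, for Nr1d1, with nm7 low. Of 101 genes checked, which also hold the listed and nearest genes, 4 had such a sample, and chance gives about 1 in 20. They were Btrc, part of a ubiquitin ligase of clock proteins, with a ratio of 0.964 and skm4 high at 7.96, Dsp, a keratinocyte marker, with 0.915 and skm5 high at 8.33, Cd68, a macrophage marker, with 0.884 and skm5 high at 7.21, and Hspa1b, a heat shock protein, with 0.851 and nm7 high at 9.29.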

How the results depend on the processing

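The number of the 10 genes past the test, 0, rested on the setting. It was 1 with the mean of all probe sets, 2 with quantile normalization, 2 without _x_at and _s_at probe sets, 3 with every probe set tested, 4 at a threshold of 0.10, 5 with an intensity trend and 6 of 9 measured with dim genes (mean under the median gene) left out. The genes past the test over the whole table, 4, became 92, 188, 142, 326, 995, 1110 and 1026 in the same order, and 0 to 15 with a sample left out. The share of these that were higher in skm was 75%, and 48.9% with quantile normalization. With a sample left out, 0 of the 10 passed each time, 9 or 10 had no overlap, where 76.1% to 79.5% of all genes had none, and the median absolute difference was 0.48 to 0.68. In the other settings it was 0.58 to 0.60. A fit with a sample left out has 1 array in a prefix and can call few genes, so its counts of genes past the test say little. Dbp differed by 2.53 to 3.33 in every setting, at adjusted p from 0.0043 to 0.143. Reversed signs were those of Nfil3, at 0.031 with quantile normalization, 0.015 with median centring and -0.22 to 0.20 with a sample left out, and of Rora, at 0.13 with the mean of probe sets. The other 8 kept their direction in every setting in which they were measured. Fewer genes tested is part of the filter's construction, and the cause of the other changes was not tested. No paired analysis was possible because the samples form 1 group and the prefixes share no numbers. The 4 arrays limit all of these values.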
